A study of Drosophila melanogaster with 266 samples.

Results

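Fly neurons signal with acetylcholine, GABA or glutamate, and 3 driver lines of this resource label these transmitter classes as a whole instead of one anatomical cell type. The results below describe the 6 libraries made with these broad drivers, out of 266 libraries in the series and 203 that passed the authors' quality control. Their members were chosen by driver name, with 2 libraries each for the ChAT, Gad1 and VGlut drivers, and each pair was set against the 4 libraries of the 2 other drivers. In the ChAT driver (ChAT_d1, stock ChAT[MI04508]/TM6B) a Trojan-GAL4 protein trap sits in the choline acetyltransferase gene. The Gad1 driver (Gad1_d1, stock Gad1[MI09277]/TM6B) carries a Trojan-lexA:QFAD trap in the glutamic acid decarboxylase gene, and the VGlut driver (VGlut_d1, stock VGlut[MI04979]/CyO) a Trojan-GAL4 trap in the vesicular glutamate transporter gene. All 3 stocks have a white-mutant background (w[*]), and whether a balancer was carried by the flies used is not given in the sources used here. Such a trap makes the transgenic activator wherever the host gene is transcribed, so the labelled cells are putative users of that transmitter, and the host allele is itself altered by the insertion. All 6 libraries hold RNA of nuclei that were captured by TAPIN, a tandem pull-down on a GFP-tagged nuclear envelope protein (UNC84), from heads of adult flies not sorted by sex. The ChAT and VGlut drivers expressed this tag from a GAL4 reporter (10XUAS_UNC84_attP2), and the Gad1 driver from a LexA reporter (13XLexAop2_UNC84_attP18). For the Gad1 libraries, driver and reporter therefore cannot be told apart.

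A cholinergic neuron makes acetylcholine with choline acetyltransferase (ChAT) and loads it into vesicles with the vesicular transporter VAChT, which is encoded within the same locus. GABAergic neurons make GABA with Gad1 and load it with VGAT, and glutamatergic neurons load glutamate with VGlut. In the fly brain acetylcholine is the main fast excitatory transmitter, GABA is inhibitory, and glutamate can be either, since the fly has a glutamate-gated chloride channel. The abundance unit throughout is TPM (abundance corrected for transcript length and scaled to a fixed total per library) of coding genes, and differences are log2 fold changes of TPM + 1 between a driver and the mean of the 2 other drivers, with the standard error (SE) of a limma fit. That scale understates the change of low genes. A gene was called higher or lower when its Benjamini-Hochberg adjusted p over all 7209 genes tested was under 0.05. Genes were tested when at least 2 of the 6 libraries held at least 10 TPM, so a gene present in a single driver could pass. The 3 comparisons share their libraries and are not independent of each other. Bulk values cannot tell fewer cells of a type from less RNA per cell.

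The 6 libraries were not equally alike. The 2 Gad1 libraries correlated at r = 0.954 over coding genes on the log2 scale and the 2 VGlut libraries at 0.957, whereas the 2 ChAT libraries correlated at 0.904, within the range of 0.891 to 0.914 that they showed with libraries of the other drivers. Coding genes with a TPM above 0 numbered 9490 and 10171 in the ChAT libraries, 10015 and 10623 in the Gad1 libraries and 10718 and 11336 in the VGlut libraries (range over all 195 passing nuclear libraries 8642 to 13221). ERCC spike-in RNA made up 1.24% and 1.61% of the ChAT libraries, 0.500% and 0.416% of the Gad1 libraries and 0.292% and 0.311% of the VGlut libraries. RNA of the nuclear tag stood at 6582 and 7495 TPM in ChAT, 9837 and 10447 TPM in Gad1 and 12261 and 12415 TPM in VGlut libraries. Spike-in shares were thus highest, and tag RNA lowest, in both ChAT libraries, while their numbers of genes overlapped those of Gad1. The part of these measures in the results was not tested. The median log2 fold change over all genes tested was -0.26 for the ChAT driver, 0.06 for the Gad1 driver and 0.23 for the VGlut driver. Quantile normalization moved the log2 fold changes of single genes by a median of 0.20, 0.02 and -0.23 in these comparisons, and none of the calls on named genes changed direction under it. The summed level of 14 pan-neuronal genes such as elav and nSyb was 41443 and 40098 TPM in ChAT, 48413 and 39991 TPM in Gad1 and 40889 and 34566 TPM in VGlut libraries, and limma called none of the 14 in any comparison (2 in each had an unadjusted p under 0.05).

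Each driver gene was most abundant in the libraries of its own driver. VAChT (3R:18705501-18718916, + strand, BDGP6) had 1039 and 937 TPM in ChAT libraries, against 76.3 and 75.8 TPM in Gad1 libraries and 50.3 and 57.1 TPM in VGlut libraries. It was higher in ChAT libraries by 3.93 ± 0.16 (log2, SE; adjusted p = 6.32e-05). ChAT libraries did not overlap the others, a pattern that 9.6% of all genes tested showed in this direction. ChAT itself (3R:18705501-18732344, + strand), whose annotated span contains that of VAChT and starts at the same base, had 129.8 and 183 TPM in ChAT libraries, against 26.4 and 31.6 TPM in Gad1 and 24.1 and 44.0 TPM in VGlut libraries. The difference was 2.29 ± 0.33 (adjusted p = 0.0122), and it was no longer called without Gad1 replicate 1. Reads over the stretch shared by the 2 genes cannot be assigned to one of them with certainty. Ace, the acetylcholinesterase that ends the signal in the synapse, was present everywhere and differed less, with 1209 and 1227 TPM in ChAT libraries, against 674 and 570 TPM in Gad1 and 963 and 853 TPM in VGlut libraries (0.70 ± 0.13, adjusted p = 0.0276, a call lost without any 1 of the 6 libraries).

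Gad1 (3L:4074077-4088744, - strand) had 1239 and 1337 TPM in Gad1 libraries, against 97.0 and 93.6 TPM in ChAT libraries and 12.2 and 6.94 TPM in VGlut libraries. This is a difference of 5.36 ± 0.24 (adjusted p = 2.92e-05) without overlap, as was the case for 8.59% of all genes tested. Both ChAT libraries held more Gad1 RNA than either VGlut library. VGAT, the vesicular GABA transporter, was far less selective, with 418 and 407 TPM in Gad1 libraries, against 256 and 319 TPM in ChAT and 276 and 266 TPM in VGlut libraries, and its difference of 0.57 ± 0.15 did not pass the test (adjusted p = 0.0926). Gabat, the GABA transaminase, had 78.0 and 57.4 TPM in Gad1, 26.5 and 27.2 TPM in ChAT and 40.0 and 52.6 TPM in VGlut libraries, and was not called (0.91 ± 0.30, adjusted p = 0.193). Gat, a plasma membrane GABA transporter known from glia, stood at 4.63 and 11.1 TPM in Gad1 libraries, against 64.7 and 25.5 TPM in ChAT and 15.8 and 17.6 TPM in VGlut libraries (-1.72 ± 0.58, adjusted p = 0.197). Of the 4 GABAergic genes, Gad1 alone was called in the Gad1 comparison.

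VGlut (2L:2400295-2410662, + strand) had 838 and 873 TPM in VGlut libraries, against 49.4 and 64.0 TPM in ChAT libraries and 16.8 and 14.7 TPM in Gad1 libraries (4.79 ± 0.21, adjusted p = 4.98e-05). VGlut libraries did not overlap the others, as for 14.7% of all genes tested. As with Gad1, the ChAT libraries held more of this marker than the remaining driver did. VGlut was nonetheless called lower in the ChAT comparison (-1.06 ± 0.21, adjusted p = 0.0367), where the mean of the others includes the VGlut driver, a call lost without any library other than ChAT replicate 2, and also under quantile normalization, in the 2-group fit and without the filter on low values. The other glutamate-handling genes were not called for the VGlut driver. Eaat2, a transporter of acidic amino acids, had 104.5 and 150.4 TPM in VGlut libraries, against 138 and 151 TPM in ChAT and 140.1 and 213 TPM in Gad1 libraries. Gdh (glutamate dehydrogenase) differed by 0.02 ± 0.21 and Gs1 (a glutamine synthetase) by 0.14 ± 0.52. Gs2, the second glutamine synthetase and a glial marker, was called higher in the ChAT libraries, at 150.4 and 89.5 TPM, against 42.2 and 44.0 TPM in Gad1 and 32.8 and 30.7 TPM in VGlut libraries (1.62 ± 0.29, adjusted p = 0.0279, lost without any library other than ChAT replicate 2). Eaat1 was not tested, as it passed 10 TPM in ChAT replicate 1 alone.

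**Figure D1:**
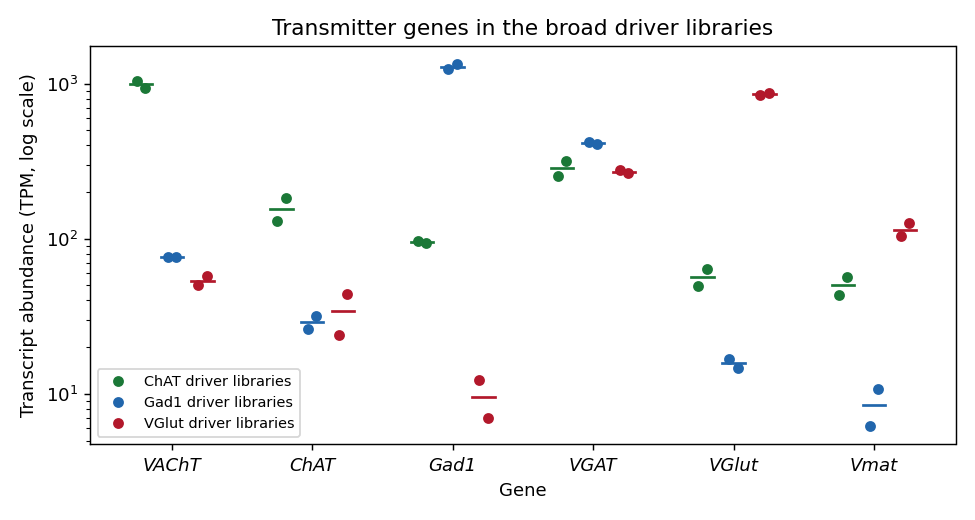
TPM of 6 transmitter genes on a log axis, with 2 points per driver (1 per library) and a bar at their mean. VAChT and ChAT sit highest in the ChAT libraries, Gad1 in the Gad1 libraries and VGlut and Vmat in the VGlut libraries, while VGAT lies between 256 and 418 TPM in all 6.

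The deposited transcript values, which are scaled to all RNA including spike-ins and so run lower than the gene values above, show which annotated isoforms carry these signals. For VGlut, transcript FBtr0331202 was assigned 299.8 and 329 TPM, FBtr0307078 237 and 299 TPM and FBtr0077769 161 and 86.4 TPM in the VGlut libraries. In the ChAT libraries, in contrast, most VGlut signal was assigned to FBtr0077769, with 38.4 and 40.9 TPM, and 3.33 and 11.1 TPM to FBtr0307078. In the Gad1 libraries most Gad1 signal was assigned to FBtr0073276, with 873 and 810.0 TPM, against 82.0 and 26.6 TPM in the ChAT libraries and 0 in both VGlut libraries. FBtr0332980 had 78.4 and 82.2 TPM in the Gad1 libraries, against 0 and 47.1 TPM in the ChAT and 10.1 and 5.68 TPM in the VGlut libraries, where it carried all of the Gad1 signal. These assignments are estimates from short reads and were not tested.

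In the ChAT comparison, 131 genes were higher (1.82% of those tested) and 119 lower (1.65%) in ChAT libraries than in the mean of Gad1 and VGlut libraries, and 1743 genes had an unadjusted p under 0.05. The gene with the largest change was CG13618, with 167.1 and 171 TPM in ChAT libraries and listed at 0 in all 4 others (adjusted p = 0.00283). The highest level of CG13618 over 189 other passing nuclear libraries was 48.9 TPM. sosie, a transmembrane protein gene, had 454 and 626 TPM in ChAT libraries, against 30.6 and 7.0 TPM in Gad1 and 15.1 and 15.3 TPM in VGlut libraries (5.06 ± 0.51, adjusted p = 0.00374). bru2, an RNA-binding protein of the Bruno family, had 124.9 and 100.5 TPM in ChAT libraries, against 2.77 and 4.83 TPM in Gad1 and 2.55 and 3.24 TPM in VGlut libraries (4.73 ± 0.54, adjusted p = 0.00572). These 3 genes were called whichever of the 6 libraries was left out, and so were CG5388 (124 and 67.2 TPM in ChAT libraries, at most 2.35 TPM elsewhere) and Obp19d, an odorant-binding protein gene (55.1 and 89.8 TPM in ChAT libraries, at most 3.94 TPM elsewhere). meru (132 and 71.9 TPM, at most 6.93 TPM elsewhere), CG13622 (35.5 and 12.8 TPM, at most 0.39 TPM elsewhere) and CG33226 (76.5 and 12.5 TPM, at most 2.78 TPM elsewhere) were also among the 10 highest. These 3 calls were lost without ChAT replicate 1 or Gad1 replicate 1.

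ChAT libraries lay below the 4 others for 21.6% of genes tested. Of the genes called lower, mthl8, which encodes a Methuselah-like receptor, differed most. It had 0.20 and 0 TPM in ChAT libraries, against 102.0 and 122 TPM in Gad1 and 106 and 90.9 TPM in VGlut libraries (adjusted p = 0.00068). fd59A, a forkhead transcription factor gene, had 0.63 and 1.07 TPM in ChAT libraries, against 30.1 and 36.9 TPM in Gad1 and 82.0 and 122 TPM in VGlut libraries (-5.0 ± 0.47, adjusted p = 0.00283). Both held without each library in turn. The next 8 included CG43175, CG11563 and CG32189, all listed at 0 in both ChAT libraries and between 2.89 and 42.9 TPM in the others, and CG9344, CG12863, 26-29-p and CG3709, with at most 2.78 TPM in ChAT libraries and 11.6 to 58.6 TPM in the others. CG12863 and CG3709 were on in 60 and 59 of 62 single cell types by the authors' expression model, and 26-29-p in 49, so these low ChAT values were for genes found in most cell types. The calls on these 7 genes were lost without Gad1 replicate 1, and those on all but CG43175 without Gad1 replicate 2 and without VGlut replicate 1. More generally, the counts of 131 and 119 became 76 and 148 without ChAT replicate 1, 161 and 530 without ChAT replicate 2, 53 and 30 without Gad1 replicate 1, 54 and 20 without Gad1 replicate 2, 67 and 44 without VGlut replicate 1, and 70 and 37 without VGlut replicate 2. Of 63 calls on named genes in this comparison, 26 held in all 6 of these fits, and every other but those on D, fkh and fru was lost without Gad1 replicate 1. Restricted to the 4 libraries with the GAL4 reporter (ChAT against VGlut alone), 23 genes were higher and 16 lower.

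In the Gad1 comparison, 65 genes were higher (0.902%) and 169 lower (2.34%) in Gad1 libraries than in the mean of ChAT and VGlut libraries, with 1065 genes at an unadjusted p under 0.05. CG14989 was the most abundant of them, at 16893 and 17955 TPM in Gad1 libraries, against 823 and 849.8 TPM in ChAT and 89.3 and 127 TPM in VGlut libraries (5.86 ± 0.15, adjusted p = 1.47e-06). This gene lies on 3L:4087581-4092706 on the + strand, and its first 1164 annotated bases overlap the 5′ end of Gad1 on the - strand. As the sources do not state that strand was used in quantification, reads from the overlap cannot be told apart. CG14989 had 13.6 and 13.4 times the TPM of Gad1 in Gad1 libraries, 8.48 and 9.08 times in ChAT libraries and 7.32 and 18.2 times in VGlut libraries. By the authors' model it was on in 7 of 62 single cell types, and Gad1 was on in all 7 of them.

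Several other genes were far higher in Gad1 libraries than in the 4 others. CG16884 had 476 and 466 TPM in Gad1 libraries, against 0 and 0.26 TPM in ChAT and 0.33 and 0 TPM in VGlut libraries (8.70 ± 0.61, adjusted p = 0.000422), and 2 of 189 other passing nuclear libraries exceeded the lower of its Gad1 values. CG42249 (X:11096273-11108148) had 2111 and 1458 TPM in Gad1 libraries, against 12.3 and 11 TPM in ChAT and 9.85 and 13.8 TPM in VGlut libraries (7.12 ± 0.27, adjusted p = 1.1e-05), and its highest value over the 189 others was 54.0 TPM. Ssdp (3R:18192494-18199595), which encodes a cofactor of LIM-domain transcription factors, had 7518 and 4231 TPM in Gad1 libraries, against 192 and 245 TPM in ChAT and 217 and 173 TPM in VGlut libraries (4.78 ± 0.24, adjusted p = 4.9e-05). Over the 189 others Ssdp ranged from 126 to 1014 TPM, with a median of 215 TPM. Neither Ssdp nor CG42249 was called on in any of the 62 single cell types. The authors' model was fitted to the passing libraries, the Gad1 libraries included, so an off call does not mean that RNA was absent. In both genes all 189 others lay below the Gad1 libraries, and the Gad1 libraries are also the ones with a LexA driver and reporter. The white gene w, an eye pigment transporter, is also carried by many fly transgenes as a marker. Among the 6 libraries it was highest in Gad1, at 529.9 and 825 TPM, against 34.2 and 52.4 TPM in ChAT and 84.3 and 122 TPM in VGlut libraries (3.31 ± 0.27, adjusted p = 0.000856). Its Gad1 values lay within the range of the 189 others (64.8 to 2170 TPM, median 426 TPM), and 63 of these exceeded the lower Gad1 value. Both ChAT values lay below that range, and w was also called lower in the ChAT comparison (-2.59 ± 0.27, adjusted p = 0.00445).

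Among the rest of the 10 highest, CG42319 had 196 and 202 TPM in Gad1 libraries, against 10.4 and 7.11 TPM in ChAT and 5.88 and 5.66 TPM in VGlut libraries (4.63 ± 0.40, adjusted p = 0.000952), a call lost without Gad1 replicate 1. Prx2540-2 (23.3 and 31.5 TPM), c-cup (17.3 and 41.5 TPM) and CG15394 (24.6 and 10.3 TPM) were listed at 0 in all 4 other libraries. CG18577 had 24.2 and 56.4 TPM in Gad1 libraries and at most 3.46 TPM elsewhere. Prx2540-2 is 1 of a set of closely similar peroxiredoxin genes, so its reads may have been split among copies. These last 4 calls were lost without either Gad1 replicate or either VGlut replicate.

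Gad1 libraries lay below the 4 others for 10.5% of genes tested. The 10 genes with the largest deficit included the transcription factor genes scro, erm, slp2 and tj, described below. Or85c, an odorant receptor gene, had 0 and 1.68 TPM in Gad1 libraries, against 15.6 and 19.4 TPM in ChAT and 62.4 and 73.4 TPM in VGlut libraries (-4.44 ± 0.61, adjusted p = 0.00795). CG17669 had 2.07 and 4.44 TPM in Gad1, 37.7 and 75.0 TPM in ChAT and 124 and 138 TPM in VGlut libraries. CG17834 (0.49 and 0 TPM in Gad1, 32.7 to 60.9 TPM in the others), CG15186 (1.79 and 5.75 TPM in Gad1, 49.0 to 89.8 TPM in the others), CG8568 (0 in both Gad1 libraries, 11.1 to 21.9 TPM in the others) and twit (0 and 2.14 TPM in Gad1, 10.7 to 124 TPM in the others) completed them. CG17669, CG17834 and CG15186 held without each library in turn. The counts of 65 and 169 were 88 and 193 without ChAT replicate 1, 137 and 200 without ChAT replicate 2, 10 and 36 without Gad1 replicate 1, 12 and 43 without Gad1 replicate 2, 28 and 70 without VGlut replicate 1, and 37 and 83 without VGlut replicate 2. Of 61 calls on named genes, 21 held in all 6 fits, and every other was lost without Gad1 replicate 1.

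In the VGlut comparison, 73 genes were higher (1.01%) and 32 lower (0.444%) in VGlut libraries than in the mean of ChAT and Gad1 libraries, with 1020 genes at an unadjusted p under 0.05. Tektin-C, a microtubule protein gene, had 139 and 142 TPM in VGlut libraries and at most 1.43 TPM in the 4 others (6.29 ± 0.65, adjusted p = 0.00652), above the 60.2 TPM that was its maximum over the 189 other passing nuclear libraries. dysf, a bHLH-PAS transcription factor gene, had 89.1 and 125 TPM in VGlut libraries, against 0.84 and 0.59 TPM in ChAT and 0.28 and 0.20 TPM in Gad1 libraries (6.19 ± 0.67, adjusted p = 0.00749). Or85b, which lies 375 bases from Or85c on 3R, had 43.3 and 71.2 TPM in VGlut libraries, against 6.78 and 3.94 TPM in ChAT and 0.95 and 0 TPM in Gad1 libraries (4.26 ± 0.68, adjusted p = 0.0261). fd59A, nearly absent from ChAT libraries, was again called (3.67 ± 0.47, adjusted p = 0.0133). CG12994 had 67.8 and 93.2 TPM in VGlut libraries and at most 6.32 TPM elsewhere, and Unc-115b, an actin-binding protein gene, 28.2 and 35.8 TPM and at most 2.61 TPM elsewhere.

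VGlut libraries lay below the 4 others for 4.74% of genes tested. Genes called lower were led by CG14989, Gad1, CG42319 (-0.51 against ChAT libraries alone, adjusted p = 0.753) and VAChT, all described above. Next was grn, a GATA factor gene with 9.49 and 11.9 TPM in VGlut libraries, against 125 and 88.7 TPM in ChAT and 27.9 and 28.9 TPM in Gad1 libraries (-2.27 ± 0.35, adjusted p = 0.0247). Bx (Beadex), which encodes a LIM-only protein, had 156 and 154 TPM in VGlut libraries, against 249 and 326 TPM in ChAT and 691 and 587 TPM in Gad1 libraries (-1.45 ± 0.16, adjusted p = 0.00864). CG9896 stood at 310.4 and 313 TPM in VGlut libraries and 724 to 1655 TPM in the others, and btsz, a synaptotagmin-like protein gene, at 42.0 and 44.6 TPM and 103 to 167 TPM. The counts of 73 and 32 were 125 and 40 without ChAT replicate 1 and 199 and 50 without ChAT replicate 2, but 10 and 7 without Gad1 replicate 1, 28 and 11 without Gad1 replicate 2, 6 and 6 without VGlut replicate 1, and 3 and 6 without VGlut replicate 2. Of 36 calls on named genes, 6 held in all 6 fits (VGlut, Gad1, CG14989, VAChT, toy and scro), and every other was lost without either VGlut replicate.

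**Figure D2:**
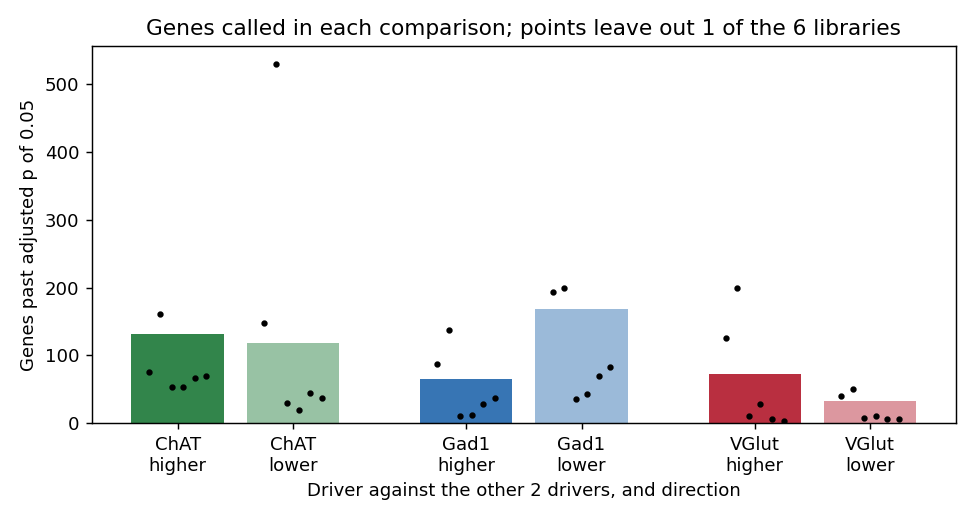
Number of genes past an adjusted p of 0.05 in each comparison, higher (dark bars) and lower (pale bars), with points for the 6 fits that each leave out 1 library. The bars stand at 131 and 119 for ChAT, 65 and 169 for Gad1 and 73 and 32 for VGlut, and the points range up to 530 for ChAT (lower) and down to 3 for VGlut (higher).

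Genes of monoamine and histamine neurons were examined as markers of further transmitter systems. Of 9 such genes 5 were tested, and Vmat, the vesicular monoamine transporter, differed most. It had 104 and 126 TPM in VGlut libraries, against 43.4 and 56.9 TPM in ChAT and 6.19 and 10.8 TPM in Gad1 libraries. It was called higher in the VGlut comparison (2.41 ± 0.35, adjusted p = 0.0207) and lower in the Gad1 comparison (-3.05 ± 0.35, adjusted p = 0.00406). Between VGlut and ChAT libraries alone, Vmat differed by 1.18 (adjusted p = 0.117). The authors' model read Vmat as off with each of the drivers. Ddc, the decarboxylase of dopamine and serotonin synthesis, had 360 and 465 TPM in Gad1 libraries, against 267 and 246 TPM in ChAT and 199 and 230 TPM in VGlut libraries (0.80 ± 0.16, adjusted p = 0.0398), but this call was lost without any library other than ChAT replicate 1. The synthesis enzymes ple (tyrosine hydroxylase), Tdc2 (tyrosine decarboxylase) and Tbh (which makes octopamine) were not called in any comparison. ple ranged from 3.19 to 17.5 TPM, Tdc2 from 2.66 to 26.1 TPM and Tbh from 30.2 to 102 TPM over the 6 libraries. DAT, Trh, SerT and Hdc did not pass the filter, and their highest values were 15.5, 7.18, 3.41 and 4.50 TPM.

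Several of the largest differences were in transcription factor genes. Homeodomain factors bind DNA through a homeodomain and mark neuron types in many animals. Of 91 such genes 42 were tested, and in the ChAT comparison 7 were higher and 4 lower (median log2 fold change 0.11, against -0.26 over all genes). In the Gad1 comparison 4 were higher and 6 lower (median -0.14, against 0.06), and in the VGlut comparison 4 were higher and 3 lower (median 0.00, against 0.23). Of 42 further factors named for neuron identity 31 were tested: 4 were higher and 2 lower for ChAT, 1 higher and 10 lower for Gad1, and 5 higher and none lower for VGlut. Their medians were 0.22, -0.19 and 0.06, and the shares called over all genes were 1.82% higher and 1.65% lower for ChAT, 0.902% and 2.34% for Gad1, and 1.01% and 0.444% for VGlut.

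In ChAT libraries the POU factor acj6 had 323 and 349 TPM, against 15.9 and 18.0 TPM in Gad1 and 20.2 and 14.1 TPM in VGlut libraries (4.24 ± 0.29, adjusted p = 0.000793). ap (apterous), a LIM-homeodomain factor, had 238 and 315 TPM in ChAT libraries, against 8.95 and 8.14 TPM in Gad1 and 42.9 and 60.5 TPM in VGlut libraries (3.63 ± 0.29, adjusted p = 0.00154). Both were called without each library in turn and also against VGlut libraries alone. The 6 libraries are not among the 62 single cell types, but the authors' model was fitted to the passing libraries, these 6 included. Calls in the single cell types are therefore not fully independent of them. In the 62 single cell types acj6 was on in 5 and ap in 16 by that model, and VAChT was on in every one of these cell types. VAChT was on in 32 of the 62, Gad1 in 7 and VGlut in 13. Drgx had 59.4 and 71.8 TPM in ChAT libraries and at most 3.04 TPM elsewhere (4.56 ± 0.65, adjusted p = 0.0118), and CG11085 had 24.2 and 15.7 TPM and was listed at 0 in all others. Each was on in 4 single cell types, all with VAChT on. The CG11085 call (4.36 ± 0.83, adjusted p = 0.0322) was lost without any library other than ChAT replicate 2. It also did not pass against VGlut libraries alone (adjusted p = 0.0698). Sox102F, an HMG-box factor, had 269 and 251 TPM in ChAT libraries, against 14.0 and 23.8 TPM in Gad1 and 51.4 and 57.5 TPM in VGlut libraries (3.00 ± 0.28, adjusted p = 0.00283). It was on in 13 single cell types, 9 with VAChT on and none with Gad1 or VGlut on. erm, a zinc finger factor, had 126 and 156 TPM in ChAT libraries, against 1.00 and 2.20 TPM in Gad1 and 38.5 and 56.3 TPM in VGlut libraries (3.69 ± 0.42, adjusted p = 0.00572). vvl, zfh2 and fru were also higher in ChAT libraries, by 2.12 ± 0.27, 0.98 ± 0.13 and 0.95 ± 0.14. Against VGlut libraries alone, erm (1.57, adjusted p = 0.072), vvl (1.53, 0.0642), zfh2 (0.51, 0.165) and fru (0.62, 0.136) did not pass the threshold. scro and fkh were called too, but their values in ChAT and VGlut libraries lay close together, with differences of 0.39 for scro (adjusted p = 0.343) and -0.16 for fkh (adjusted p = 0.749) between those 2 drivers.

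Lower in ChAT libraries was Ets65A, an ETS-domain factor, with 4.80 and 7.85 TPM, against 153 and 176 TPM in Gad1 and 57.2 and 92.8 TPM in VGlut libraries (-3.95 ± 0.34, adjusted p = 0.00254). D (Dichaete), a Sox factor, had 26.7 and 42.8 TPM in ChAT libraries, against 76.4 and 123 TPM in Gad1 and 183 and 141 TPM in VGlut libraries (-1.86 ± 0.30, adjusted p = 0.0182). Dll, hbn, tup and Lmx1a were the homeodomain genes called lower for ChAT. Of these Dll had 12.1 and 17.4 TPM in ChAT libraries, against 153 and 162 TPM in Gad1 and 49.2 and 46.3 TPM in VGlut libraries (-2.50 ± 0.28, adjusted p = 0.00572).

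Among all genes tested, too, calls in the Gad1 comparison were more often lower (2.34%) than higher (0.902%). Of the listed factors called lower, scro, a homeodomain factor of the NK-2 group, had 21.1 and 27.5 TPM in Gad1 libraries, against 978 and 1146 TPM in ChAT and 944 and 692 TPM in VGlut libraries (-5.21 ± 0.19, adjusted p = 1.06e-05). It was on in 27 single cell types, 16 with VAChT, 6 with VGlut and none with Gad1 on. tj (traffic jam), a Maf factor, had 7.29 and 5.95 TPM in Gad1 libraries, against 125 and 73.0 TPM in ChAT and 183 and 174 TPM in VGlut libraries (-4.11 ± 0.31, adjusted p = 0.000576). fkh had 6.48 and 7.76 TPM in Gad1 libraries, against 104.8 and 114.7 TPM in ChAT and 139.9 and 108 TPM in VGlut libraries (-3.85 ± 0.28, adjusted p = 0.000488). tj and fkh were each on in 13 single cell types, 7 of them with VGlut on and none with Gad1 on. VAChT was on in 5 of those for tj and in 6 of those for fkh. erm, slp2, kn, ham, Sox102F and dac had log2 fold changes between -5.02 and -2.58 in Gad1 libraries and were called lower, as were mamo (-1.05) and fru (-0.95). Among homeodomain genes ap (-3.65 ± 0.29), acj6 (-2.11 ± 0.29), vvl (-1.95 ± 0.27), zfh1 (-1.75 ± 0.28) and zfh2 (-1.2 ± 0.13) were lower as well. For acj6, values in Gad1 (15.9 and 18.0 TPM) and VGlut libraries (20.2 and 14.1 TPM) overlapped, and the mean it was set against includes the high ChAT values. The calls on scro, tj, fkh, erm, Sox102F and ap held without each library in turn.

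Of factors higher in Gad1 libraries, Ets65A was called (2.84 ± 0.34, adjusted p = 0.00493), as was Dll (2.53 ± 0.28, adjusted p = 0.00339). Lim3, a LIM-homeodomain factor, had 234 and 181 TPM in Gad1 libraries, against 55.1 and 80.4 TPM in ChAT and 79.9 and 56.7 TPM in VGlut libraries (1.60 ± 0.26, adjusted p = 0.0164). It was on in 8 single cell types, 5 with Gad1, 3 with VGlut and 1 with VAChT on. Gad1 and VGlut were both on in 1 of the 62 single cell types, so these counts can overlap. The Pax6 genes toy and ey were both higher in Gad1 libraries. toy had 832 and 926 TPM in Gad1, 522 and 653 TPM in ChAT and 227 and 256 TPM in VGlut libraries (1.22 ± 0.15, adjusted p = 0.00467), and ey 199 and 283 TPM in Gad1, 120.1 and 138 TPM in ChAT and 75.7 and 105 TPM in VGlut libraries (1.14 ± 0.22, adjusted p = 0.0353). The calls on all 5 genes were lost without either Gad1 replicate, and that on ey also without VGlut replicate 1.

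In VGlut libraries the highest log2 fold change among factors of these lists was that of Lmx1a, a LIM-homeodomain factor, with 38.6 and 47.4 TPM, against 0.26 and 0 TPM in ChAT and 4.03 and 6.13 TPM in Gad1 libraries (4.08 ± 0.66, adjusted p = 0.0288). It was on in 2 single cell types, both with VGlut on. svp, a nuclear receptor gene, had 313 and 272 TPM in VGlut libraries, against 54.4 and 13.6 TPM in ChAT and 37.8 and 46.1 TPM in Gad1 libraries (3.07 ± 0.47, adjusted p = 0.0249), and the 2 ChAT libraries differed widely. slp2, a forkhead factor, had 75.1 and 52.3 TPM in VGlut libraries, against 19.1 and 12.7 TPM in ChAT and 0.63 and 0.37 TPM in Gad1 libraries (3.68 ± 0.56, adjusted p = 0.0244). kn (knot, a COE factor) had 64.9 and 64.0 TPM in VGlut libraries, against 23.9 and 14.6 TPM in ChAT and 0.95 and 2.49 TPM in Gad1 libraries (3.19 ± 0.54, adjusted p = 0.0327). tup, an Islet-type LIM-homeodomain factor, had 82.0 and 120 TPM in VGlut libraries, against 14.4 and 15.9 TPM in ChAT and 39.1 and 37.4 TPM in Gad1 libraries (1.99 ± 0.32, adjusted p = 0.0261). tj was higher by 2.73 ± 0.31 and zfh1 by 1.54 ± 0.28. toy was lower (-1.57 ± 0.15, adjusted p = 0.00406), as were acj6, whose VGlut and Gad1 values overlapped, and ct. All of these but toy were lost without either VGlut replicate. Within the GAL4 reporter, VGlut against ChAT libraries alone, Lmx1a, acj6 and toy stayed past the threshold (adjusted p = 0.0473, 0.00292 and 0.045), whereas svp (0.0548), tup (0.0517), ct (0.0714), slp2, kn, zfh1 and tj did not. The last 4 were also smaller there, at 1.94 for slp2 (adjusted p = 0.117), 1.73 for kn (0.128), 0.89 for zfh1 (0.191) and 0.89 for tj (0.195).

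**Figure D3:**
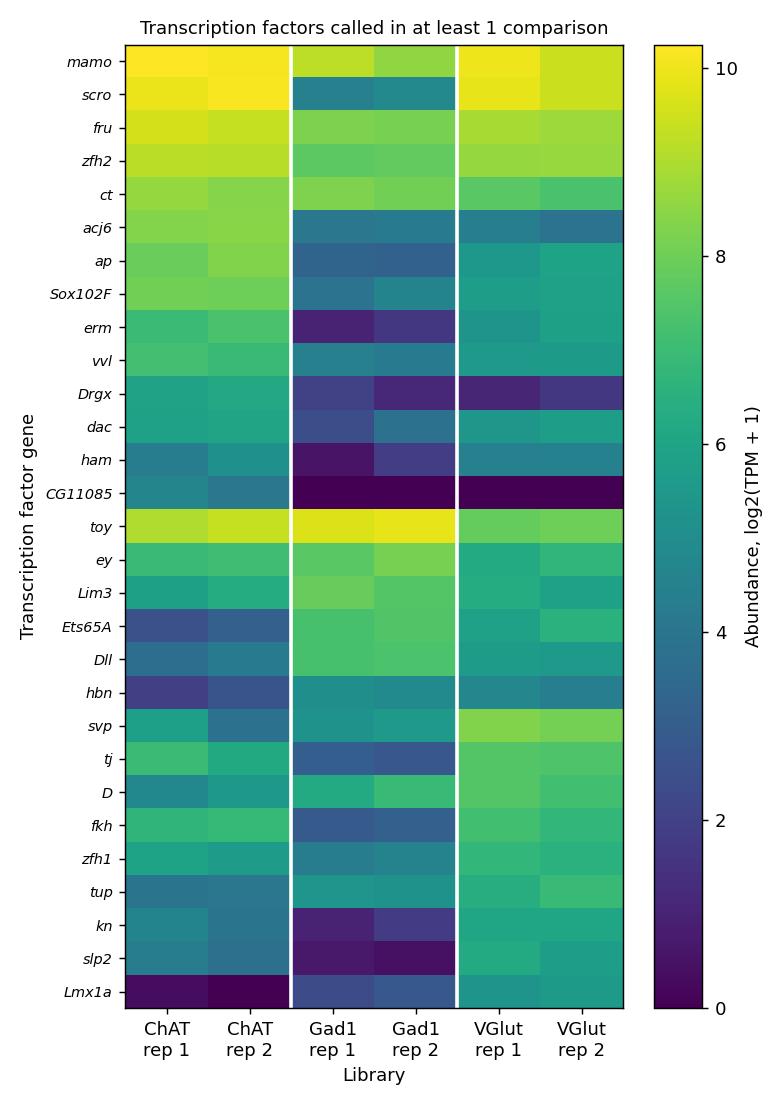
Abundance, as log2(TPM + 1) in colour, of 29 transcription factor genes called in at least 1 comparison, in the 6 libraries (columns), grouped from top to bottom by the driver with the highest mean. scro is bright in the 4 ChAT and VGlut libraries and dark in Gad1, acj6, ap and Drgx are brightest in ChAT, and svp is brightest in VGlut.

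Few receptor genes were called, as were few of all genes tested (1.82% higher and 1.65% lower for ChAT, 0.902% and 2.34% for Gad1, 1.01% and 0.444% for VGlut). Of 11 acetylcholine receptor genes tested, nAChRalpha6, a nicotinic receptor subunit, was the one called, higher for ChAT and lower for Gad1. It had 3924 and 3216 TPM in ChAT libraries, against 1393 and 1067 TPM in Gad1 and 1588 and 1210 TPM in VGlut libraries (1.45 ± 0.17, adjusted p = 0.00617), a call that held without each library in turn and against VGlut alone. In the Gad1 call on nAChRalpha6 (-0.86 ± 0.17, adjusted p = 0.0342) the mean includes the high ChAT values, and Gad1 and VGlut values overlapped. For the list as a whole the median log2 fold change was 0.15 in the ChAT, -0.13 in the Gad1 and 0.12 in the VGlut comparison. None of 7 GABA receptor genes was called by limma, and 4 in the ChAT, 4 in the Gad1 and 1 in the VGlut comparison had an unadjusted p under 0.05. Rdl, the GABA-gated chloride channel, ranged from 2355 to 4451 TPM over the 6 libraries. Grd had 66.1 and 80.0 TPM in VGlut libraries, against 25.7 and 36.8 TPM in ChAT and 13.8 and 16.6 TPM in Gad1 libraries, and came close to the threshold (1.71 ± 0.35, adjusted p = 0.0634). Of 9 glutamate receptor genes tested, mGluR, the metabotropic receptor, was higher in Gad1 libraries, at 514 and 583 TPM, against 265 and 267 TPM in ChAT and 356 and 398 TPM in VGlut libraries (0.79 ± 0.13, adjusted p = 0.0215, lost without either Gad1 replicate or without VGlut replicate 1). It was also called lower in the ChAT comparison (-0.77 ± 0.13, adjusted p = 0.0243, lost without any library other than ChAT replicate 2). The glutamate-gated chloride channel GluClalpha ranged from 1743 to 2504 TPM and was not called.

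Of 17 monoamine and histamine receptor genes tested, 2 were higher for ChAT, 1 was higher and 3 lower for Gad1, and 1 was lower for VGlut. The shares called over all genes were 1.82% higher and 1.65% lower for ChAT, 0.902% and 2.34% for Gad1, and 1.01% and 0.444% for VGlut. Dop1R1, a dopamine receptor, had 324 and 402 TPM in ChAT libraries, against 95.1 and 87.5 TPM in Gad1 and 139 and 131 TPM in VGlut libraries (1.69 ± 0.17, adjusted p = 0.00374), and this held without each library in turn. The octopamine receptor Octbeta1R was highest in Gad1 libraries, at 549 and 515 TPM, against 249 and 276 TPM in ChAT and 159 and 148 TPM in VGlut libraries (1.40 ± 0.14, adjusted p = 0.00211). Its relatives went the other way: Octbeta2R had 233 and 222 TPM in Gad1 libraries, against 468 and 531 TPM in ChAT and 443 and 407 TPM in VGlut libraries (-1.01 ± 0.13, adjusted p = 0.00716), and Octbeta3R had 53.0 and 68.0 TPM in Gad1, 120.0 and 117 TPM in ChAT and 116 and 146 TPM in VGlut libraries (-1.04 ± 0.21, adjusted p = 0.0426). The Octbeta1R call held without each library, the Octbeta2R call was lost without either Gad1 replicate, and the Octbeta3R call was lost without any library other than ChAT replicate 2. ort, a histamine-gated chloride channel, had 68.9 and 81.9 TPM in VGlut libraries and 11.2 to 30.2 TPM in the others, and fell short of the threshold (2.03 ± 0.40, adjusted p = 0.0584). The median log2 fold change of this list was 0.46 for ChAT, -0.86 for Gad1 and 0.23 for VGlut, against -0.26, 0.06 and 0.23 over all genes.

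Of 47 neuropeptide precursor genes 16 were tested. Tk, the tachykinin precursor, had 9.70 and 13.0 TPM in Gad1 libraries, against 165 and 239 TPM in ChAT and 154 and 185 TPM in VGlut libraries (-3.91 ± 0.26, adjusted p = 0.000328), without overlap and in every fit that left out 1 library. It was called higher in both the ChAT and the VGlut comparison, each time against a mean that includes the low Gad1 values. The difference between ChAT and VGlut libraries was 0.23 (adjusted p = 0.644). AstC, the allatostatin C precursor, had 31.0 and 31.4 TPM in VGlut libraries and at most 2.03 TPM in the 4 others (3.68 ± 0.69, adjusted p = 0.0482), a call lost without either Gad1 or either VGlut replicate. Proc (proctolin) and Nplp1 were lower in ChAT libraries. Proc had 106 and 133 TPM in ChAT libraries, against 185 and 204 TPM in Gad1 and 252 and 312 TPM in VGlut libraries (-0.97 ± 0.18, adjusted p = 0.0291), and Nplp1 had 62.9 and 81.6 TPM in ChAT, 121 and 107 TPM in Gad1 and 178 and 163 TPM in VGlut libraries (-0.95 ± 0.20, adjusted p = 0.0452). Both of these calls were lost without any library other than ChAT replicate 2.

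Of 21 voltage-gated and potassium channel genes tested, 4 were called higher and none lower in ChAT libraries, with a median log2 fold change of 0.40, against 1.82% called higher, 1.65% called lower and a median of -0.26 over all genes. Shab, a delayed-rectifier potassium channel, had 3110 and 3270 TPM in ChAT libraries, against 2066 and 2201 TPM in Gad1 and 1586 and 1562 TPM in VGlut libraries (0.80 ± 0.11, adjusted p = 0.00856), a call lost without Gad1 replicate 1. KCNQ had 101.3 and 125 TPM in ChAT libraries, against 24.8 and 32.0 TPM in Gad1 and 54.6 and 67.4 TPM in VGlut libraries (1.42 ± 0.27, adjusted p = 0.0311). eag (0.66 ± 0.13) and SLO2 (0.63 ± 0.12) completed the 4, and the KCNQ and SLO2 calls were each lost without any 1 of the 6 libraries. kcc, the potassium-chloride cotransporter that sets the chloride gradient, was lower in ChAT libraries, at 106 and 103 TPM, against 211 and 287 TPM in Gad1 and 155 and 234 TPM in VGlut libraries (-1.04 ± 0.22, adjusted p = 0.0458, lost without any library other than VGlut replicate 1).

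**Figure D4:**
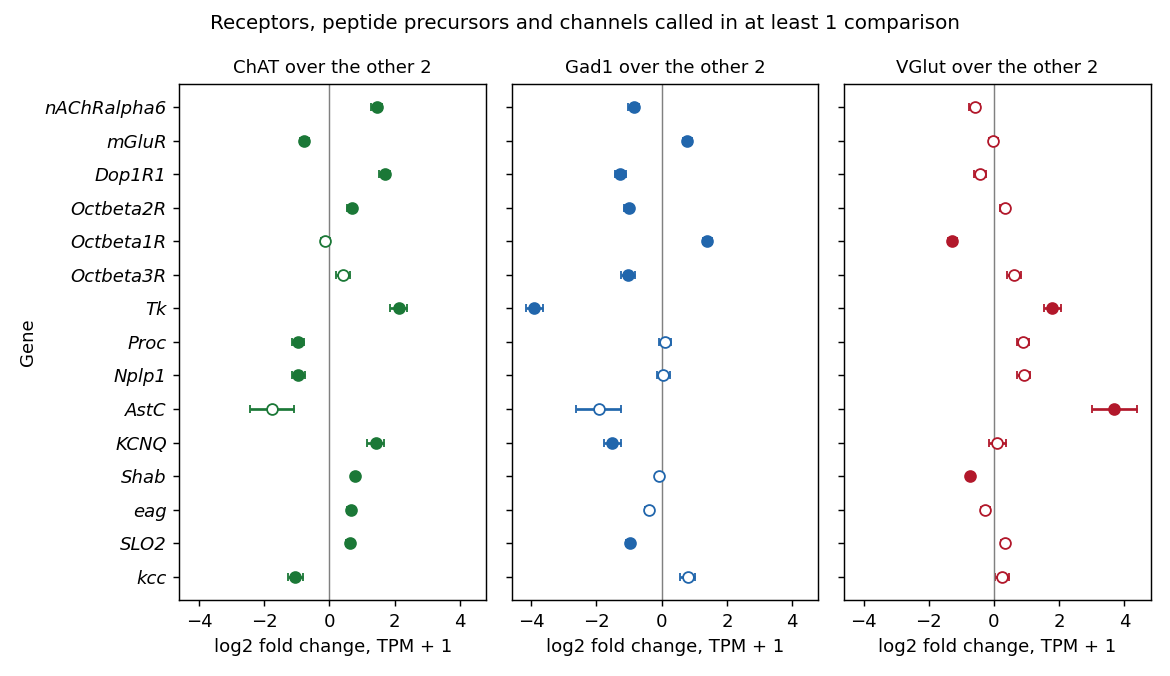
Log2 fold change of TPM + 1 with its SE for 15 receptor, peptide precursor, channel and cotransporter genes called in at least 1 comparison, for ChAT (left), Gad1 (middle) and VGlut (right) against the other 2 drivers; filled points passed an adjusted p of 0.05. Tk lies at -3.91 for Gad1, and Octbeta1R at 1.40 for Gad1 while Octbeta2R lies at -1.01.

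The DIP and dpr families encode immunoglobulin proteins of the neuronal surface that bind each other, and the beat and Side families are a second such receptor and ligand set. Of 29 DIP and dpr genes tested, 4 were higher and 1 lower for ChAT (median 0.33), 1 was higher and 4 lower for Gad1 (median -0.69), and 1 was lower for VGlut (median 0.21). Over all genes tested the medians were -0.26, 0.06 and 0.23, and the shares called were 1.82% higher and 1.65% lower for ChAT, 0.902% and 2.34% for Gad1, and 1.01% and 0.444% for VGlut. dpr3 had 505 and 553 TPM in ChAT libraries, against 100.2 and 80.1 TPM in Gad1 and 347 and 263 TPM in VGlut libraries (1.68 ± 0.18, adjusted p = 0.00445). dpr6 had 457 and 525 TPM in ChAT libraries, against 259 and 256 TPM in Gad1 and 183 and 187 TPM in VGlut libraries (1.16 ± 0.14, adjusted p = 0.00636). dpr11 ran the other way, with 288 and 295 TPM in ChAT libraries, against 637 and 647 TPM in Gad1 and 539 and 509 TPM in VGlut libraries (-0.99 ± 0.12, adjusted p = 0.00695). These 3 calls and that on dpr1 (1.33 ± 0.15) held without each library in turn, and dpr9 (1.09 ± 0.17) was lost without either Gad1 replicate.

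The largest deficit of the family in Gad1 libraries was that of DIP-eta, with 4.2 and 11.1 TPM, against 47.8 and 62.3 TPM in ChAT and 88.1 and 80.1 TPM in VGlut libraries (-3.11 ± 0.43, adjusted p = 0.00799). dpr15 had 13.2 and 19.2 TPM in Gad1 libraries, against 76.7 and 59.7 TPM in ChAT and 65.7 and 76.3 TPM in VGlut libraries (-2.05 ± 0.31, adjusted p = 0.0123). DIP-alpha had 98.6 and 107 TPM in VGlut libraries, against 27.2 and 40.1 TPM in ChAT and 59.1 and 57.3 TPM in Gad1 libraries, and was not called (1.21 ± 0.27, adjusted p = 0.0793). All 21 beat and Side genes were tested, with 2 higher for ChAT (median 0.29), 1 higher and 3 lower for Gad1 (median -0.66), and 1 lower for VGlut (median 0.25), to be read against the same shares and medians over all genes. beat-Ic had 18.4 and 19.2 TPM in Gad1 libraries, against 90.0 and 79.7 TPM in ChAT and 47.8 and 59.7 TPM in VGlut libraries (-1.78 ± 0.28, adjusted p = 0.0163). beat-VII was the member higher in Gad1 libraries, at 162 and 165 TPM, against 127 and 96.4 TPM in ChAT and 62.7 and 64.2 TPM in VGlut libraries (0.96 ± 0.20, adjusted p = 0.0456). Except for the ChAT calls on dpr3, dpr1, dpr6 and dpr11 and the Gad1 call on dpr3, the calls on these families were each lost without at least 1 Gad1 library.

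**Figure D5:**
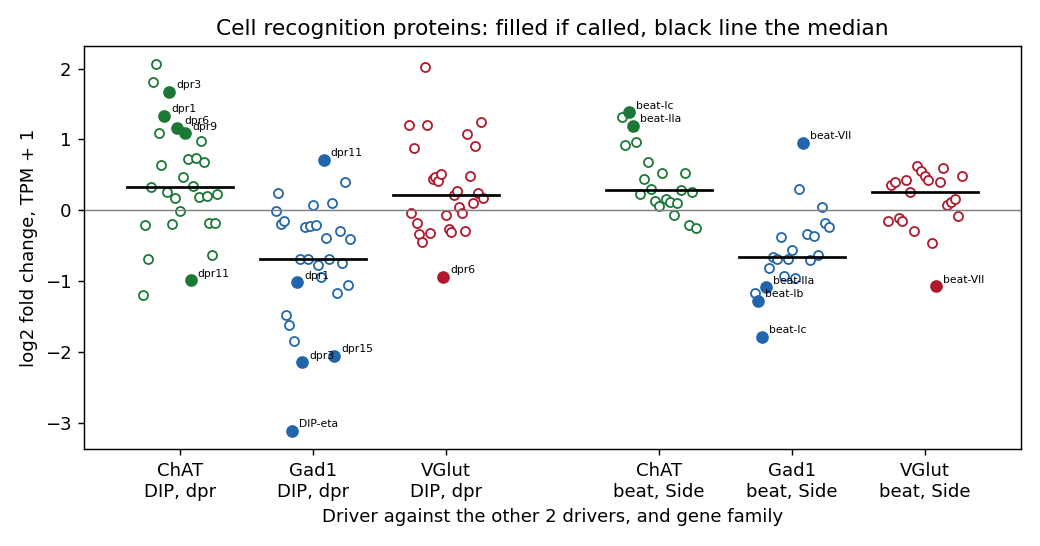
Log2 fold change of TPM + 1 for 29 DIP and dpr genes and 21 beat and Side genes, by driver; each point is a gene, filled and named if called, and black lines are medians. In the Gad1 columns the medians lie at -0.69 and -0.66, below 0, with dpr11 and beat-VII as the called genes above it.

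The authors' mixture model gives a probability that a gene is on in a driver, which was read as on at 0.8 or more and off at 0.2 or less. Of 12377 genes modeled, 5345 were on with the ChAT driver, 6221 with the Gad1 driver and 6545 with the VGlut driver, and 4798 were on with all 3. The ChAT driver had the most genes that were off while on in both other drivers, namely 644, against 125 for Gad1 and 36 for VGlut. Genes on in a single driver and off in both others numbered 183 for ChAT, 144 for Gad1 and 239 for VGlut. By this model VAChT was on with the ChAT driver alone, Gad1 with the Gad1 driver alone and VGlut with the VGlut driver alone, and the residual Gad1 and VGlut RNA in ChAT libraries was read as off. VGAT was on with all 3.

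Summed markers of several other head cell types were highest in ChAT libraries, while the pigment cell sum was lowest there. The pigment cell sum was 87.6 and 85.5 TPM in ChAT, 551 and 859 TPM in Gad1 and 119 and 150 TPM in VGlut libraries. Its lowest value over the 189 other passing nuclear libraries was 135 TPM and its median 529 TPM. The list includes w, which was called lower for ChAT and higher for Gad1. With 34.2 and 52.4 TPM in ChAT, 530 and 825 TPM in Gad1 and 84.3 and 122 TPM in VGlut libraries, w set the order of these sums. The other member tested was not called, and its log2 fold change was 0.92 in the ChAT comparison. The summed level of 10 glial markers was 325 and 189 TPM in ChAT libraries, 96.2 and 123 TPM in Gad1 and 116 and 134 TPM in VGlut libraries, and the glial factor gene repo had 23.5 TPM in ChAT replicate 1 and at most 4.04 TPM in any other of the 6. Sums over 16 muscle markers were 497 and 501 TPM in ChAT libraries, 205 and 242 TPM in Gad1 and 271 and 290 TPM in VGlut libraries. sls, which encodes a giant muscle protein, was called higher in ChAT libraries, at 62.1 and 55.7 TPM, against 8.54 and 6.87 TPM in Gad1 and 16.4 and 15.3 TPM in VGlut libraries (2.31 ± 0.42, adjusted p = 0.0284). Sums over 10 fat body and blood cell markers were 2657 and 3011 TPM in ChAT libraries, 1600 and 1964 TPM in Gad1 and 1528 and 1935 TPM in VGlut libraries, with Yp1 and apolpp called higher for ChAT and the blood cell gene He and the fat body gene Fbp1 listed at 0 in all 6. Sums over 15 photoreceptor markers were 1378 and 1518 TPM in ChAT, 1073 and 1038 TPM in Gad1 and 998 and 1060 TPM in VGlut libraries, with no gene called by limma (4 higher for ChAT at an unadjusted p under 0.05). Median sums over the 189 other passing nuclear libraries were 158 TPM for glial and 215 TPM for muscle markers. They were 1549 TPM for fat body and blood cell markers and 1058 TPM for photoreceptor markers. The part of these cells in the ChAT differences was not tested. Markers of Kenyon cells, the intrinsic neurons of the mushroom body, summed to 5794 and 5912 TPM in ChAT, 5618 and 5320 TPM in Gad1 and 4207 and 3762 TPM in VGlut libraries, with Pka-C1 called higher for ChAT, toy and ey higher and dac lower for Gad1, and toy lower for VGlut. Of 14 stress and activity genes, which summed to 2959 and 3150 TPM in VGlut libraries, 1750 and 1901 TPM in ChAT and 2180 and 2269 TPM in Gad1 libraries, Hsp70Bb alone was called, higher in VGlut libraries (0.66 ± 0.12, adjusted p = 0.0424). It is 1 of several nearly identical copies, and the call was lost without any 1 of the 6 libraries.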

How the data were processed

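Nuclear RNA of TAPIN captures was amplified, sequenced and quantified by the authors, with seqtk for read trimming and kallisto 0.43.1 for pseudo-alignment against Ensembl transcripts, ERCC spike-ins and tag constructs. The deposited TPM values of coding genes were rescaled by the authors after removal of spike-ins, constructs, ribosomal and non-coding RNA. The deposited fraction (per driver) and score (per cell type) values are the probability of expression, between 0 and 1, in the authors' RStan mixture model. Per the labels the build is dm6. Gene positions are from the Ensembl annotation of BDGP6.54, the same assembly. No sequences were used here.

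No read counts were used here, so depth is unknown and precision rests on 2 libraries per driver. The study calls these biological replicates. Log2(TPM + 1) was fitted, for genes at 10 TPM or more in 2 or more libraries of the 6, in limma 3.58.1 (R 4.3.3; driver means, eBayes with trend, 3 residual degrees of freedom, two-sided, Benjamini-Hochberg), and each driver was set against the mean of the 2 others. The code was tested on simulated data. Tables were read with Python 3.11.15, pandas 2.3.3 and numpy 2.4.6, and plotted with matplotlib 3.10.9.

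Named genes were the 10 with the largest change per direction among genes called whose libraries did not overlap, all members of the transmitter lists, and called members of the other lists, with up to 5 per list and comparison given with values. Members named without being called (Rdl, Grd, GluClalpha, ort, DIP-alpha, repo, He and Fbp1) and genes named beyond 5 per list were chosen after their values were seen. The members and lists were chosen with earlier results of these data known. Alternatives were other pseudocounts, filters and scaling, other sets of libraries, a replicate block and leaving out each library. The authors' means, model parameters and sub-optimal libraries were not used here. ChT, CG13424, CG4136, DIP-kappa, DIP-lambda and ORK1 of the lists matched no gene name in the tables.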

Additional observations from a re-analysis of the deposited data

How the results depend on the processing

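No call on a named gene changed direction in the 6-library alternatives, but many lost the threshold. Counts are given as higher and lower, for ChAT (main 131 and 119), Gad1 (65 and 169) and VGlut (73 and 32) in turn. Without a filter on low values, with more genes tested, they were 80 and 53, 41 and 97, and 33 and 19. A 2-group fit, which counts the difference between the other 2 drivers as spread, gave 39 and 46, 18 and 52, and 4 and 0 in limma, the last with 137 genes lower at an unadjusted p under 0.05. A fit to all passing libraries gave 322 and 650, 158 and 351, and 242 and 86. Within the UAS reporter, with 4 libraries, ChAT over VGlut gave 23 and 16 and VGlut over ChAT 16 and 23, and 4 called genes in the ChAT and 6 in the VGlut comparison changed sign, of which 3 calls were on named genes: Tk in the VGlut comparison (-0.23), scro in the VGlut comparison (-0.39) and fkh in the ChAT comparison (-0.16). Leaving out 1 library gave 53 to 161 and 20 to 530, 10 to 137 and 36 to 200, and 3 to 199 and 6 to 50. Pseudocounts of 0.1 and 5 TPM, a filter of 50 TPM and quantile normalization kept every count within 1.5 times. With an on limit of 0.5, genes on in a driver numbered 5736, 6462 and 6770, those off there and on in both others 981, 223 and 85, and those on there and off in both others 254, 225 and 397. The replicate block gave 177 and 156, 74 and 193, and 97 and 43. Each of these counts was above that of the main fit. Differences between replicates 1 and 2 correlated across genes at 0.05 (ChAT and Gad1), 0.01 (ChAT and VGlut) and 0.19 (Gad1 and VGlut). Whether same-numbered libraries share an effect was not tested. Read depth is unknown, so limits of detection could not be given.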
